A study of Homo sapiens with 6 samples.

Results

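The genes described here encode BET readers, the subunits of the elongation kinase P-TEFb, and proteins that hold P-TEFb inactive. They are BRD2, BRD3, HEXIM1, CDK9, CCNT1, CCNT2 and LARP7. They were chosen by name, matched by NCBI Gene ID, and are 7 of the 16623 genes in the expression tables. All 7 were found, and all 7 passed the filter on low values in every comparison. The cells were MDA-MB-231, an established human triple-negative breast cancer cell line with mesenchymal features, grown as an adherent culture. They received DMSO, the solvent, or PCI-24781, a hydroxamate inhibitor of histone deacetylases (HDACs), at 100 nM or 200 nM, for 24 h or 48 h. This gives 6 conditions with 1 library each, all of a single unmodified cell line. No difference below has a replicate check, and no p-value was calculated. The comparisons ask how the transcripts of each treated library differed from those of the DMSO library of the same time.

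BET proteins bind acetylated lysines on histones through paired bromodomains and help to recruit the transcription machinery to acetylated chromatin. P-TEFb is a kinase made of CDK9 with cyclin T1 or cyclin T2, and it releases paused RNA polymerase II into productive elongation. Much of the P-TEFb in a cell is held inactive in a particle built on the 7SK RNA, in which HEXIM1 inhibits the kinase, LARP7 binds the end of the RNA and MEPCE caps it. HDAC inhibitors raise histone acetylation, the mark that BET proteins read, and are known to release P-TEFb from this particle in some cells. RNA-seq measures transcripts only, so acetylation, protein amounts and the assembly of the particle were not measured by these libraries.

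The values are FPKM (fragments scaled to transcript length and to the mapped total of the library), calculated by the authors, in which genes can be compared with each other because length is divided out. The depth, inferred from the steps of 1 fragment in low values, was between 15700000 and 18000000 fragments, and between 1130 and 1708 genes were listed at 0. Of the 5 mesenchymal markers listed for the cell line, the lowest value in any library was 39.73 FPKM, for FN1. VIM, a mesenchymal filament gene, lay between 1629.38 and 2053.39 FPKM, while CDH1, the epithelial cadherin, lay between 0.24 and 0.39 and the oestrogen receptor ESR1 did not exceed 0.04. KRT8 and KRT18, epithelial keratins, were present at 61.52 to 110.61 FPKM, and EPCAM at 2.26 to 4.70. The 100 nM 48 h library ran against the other treated libraries. Both 24 h doses had 146 genes at least 2-fold above DMSO in common. In the 48 h libraries, 142 of these lay below DMSO with 100 nM, and 142 lay above it with 200 nM. With 1 library per condition, dose, time, a swap of labels and a property of that library or of its DMSO 48 h reference cannot be told apart, so each 48 h value below is given per library.

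The start regions of HEXIM1 and CDK9, whose ratio is described below, and of LARP7, which with CDK9 had the widest range, are shown for context. They are RefSeq promoter windows of GRCh38.p14, from 250 bases before to 50 bases after an annotated start, read 5′ to 3′ on the gene's strand. Capitals mark motifs searched on both strands. These are the GC box GGGCGG, found in 45.0% of 35116 promoter windows, the CCAAT box CCAAT, found in 34.6%, the TATA box TATAAA, found in 11.5%, the E-box CACGTG, found in 7.26%, and the cyclic AMP response element TGACGTCA, found in 1.85%.
HEXIM1, chr17:45148225-45148524, plus strand: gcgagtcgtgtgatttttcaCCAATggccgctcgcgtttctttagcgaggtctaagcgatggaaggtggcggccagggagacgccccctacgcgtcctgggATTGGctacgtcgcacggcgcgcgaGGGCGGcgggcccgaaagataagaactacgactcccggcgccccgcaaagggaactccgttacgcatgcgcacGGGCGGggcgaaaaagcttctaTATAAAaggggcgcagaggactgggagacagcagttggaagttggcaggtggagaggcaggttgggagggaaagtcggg
CDK9, chr9:127785784-127786083, plus strand: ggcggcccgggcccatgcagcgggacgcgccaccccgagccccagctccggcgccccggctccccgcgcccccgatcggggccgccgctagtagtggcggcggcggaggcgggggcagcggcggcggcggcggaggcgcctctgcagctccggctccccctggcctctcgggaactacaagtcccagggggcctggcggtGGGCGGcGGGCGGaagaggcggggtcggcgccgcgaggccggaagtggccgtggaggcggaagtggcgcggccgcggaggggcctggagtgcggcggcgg
LARP7, chr4:112636893-112637192, plus strand, the first of 2 windows: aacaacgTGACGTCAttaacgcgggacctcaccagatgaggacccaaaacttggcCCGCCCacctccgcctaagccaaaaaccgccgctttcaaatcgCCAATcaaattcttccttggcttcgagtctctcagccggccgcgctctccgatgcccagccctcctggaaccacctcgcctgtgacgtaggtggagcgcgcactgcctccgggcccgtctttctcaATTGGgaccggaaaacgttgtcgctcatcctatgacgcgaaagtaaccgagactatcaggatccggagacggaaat
The HEXIM1 window held 2 GC boxes, 2 CCAAT boxes and a TATA box that began 29 bases before the start, and 62.0% of its bases were G or C. The CDK9 window had no CCAAT or TATA match. It held 2 GC boxes, which began 50 and 43 bases before the start, and 82.0% of its bases were G or C, against a median of 58.7% over all windows. The LARP7 window held 1 GC box, 2 CCAAT boxes and 1 cyclic AMP response element, at 57.7% G or C. A letter match does not show that a factor binds there, and no binding was measured.

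The order of the transcripts was the same in 6 of 6 libraries. BRD2 stood highest, followed by HEXIM1, CDK9, LARP7, BRD3, CCNT1 and CCNT2, and the median of the highest was 12.3 times that of the lowest. The ranges of neighbours did not overlap. The narrowest gap was between the lowest CDK9 value of 24.70 FPKM and the highest LARP7 value of 24.57. Next came the lowest CCNT1 value of 5.92 above the highest CCNT2 value of 5.47. The lowest HEXIM1 value of 34.07 followed, above the highest CDK9 value of 33.32. These gaps are within counting error. The extremes of HEXIM1 and CDK9, of CDK9 and LARP7, and of CCNT1 and CCNT2, from different libraries, are therefore not separated. Within each library, BRD2 exceeded between 92.9% and 93.9% of all genes, HEXIM1 between 85.9% and 88.8%, and CDK9 between 80.1% and 85.4%. At the other end, CCNT2 exceeded between 47.2% and 50.2% of genes. Every one of the 7 was therefore expressed near or above the middle of the transcriptome, and the kinase subunit stood above its cyclins.

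**Figure D1:**
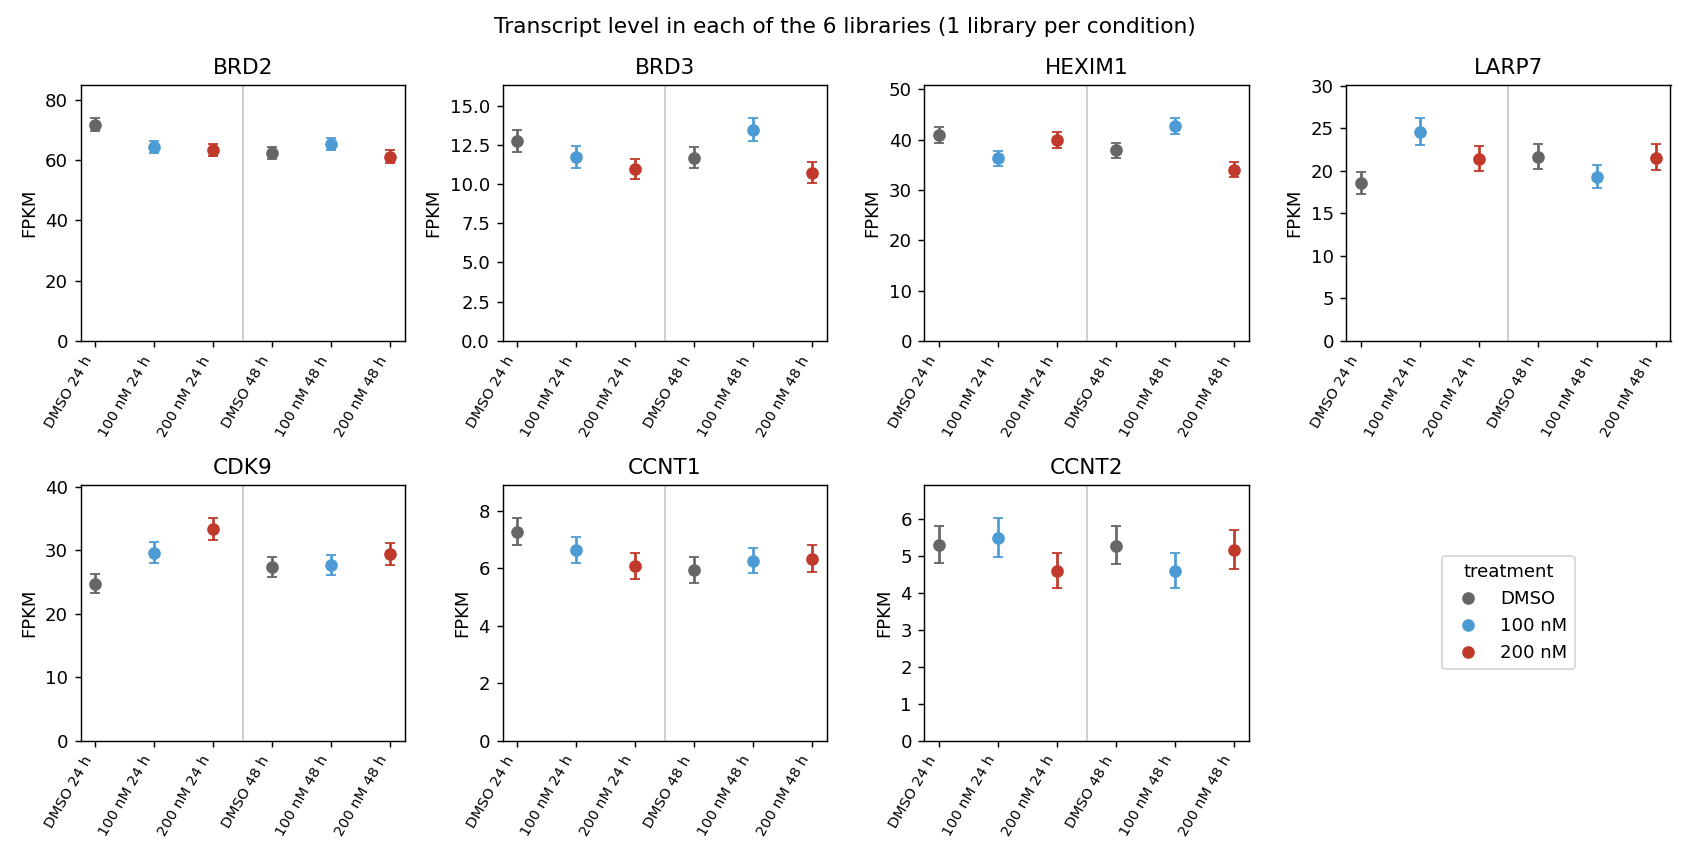
FPKM of the 7 genes in each of the 6 libraries, 1 panel per gene, with the vertical axis from 0. Points are the deposited values, bars are 95% intervals for counting error only, colours give the treatment, and the grey line separates 24 h from 48 h. CDK9 goes from 24.70 in DMSO 24 h to 33.32 at 200 nM 24 h, while BRD2 stays between 61.16 and 71.76.

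Among the readers, BRD2 (NCBI Gene ID 6046, hg19 chr6:32936437-32949282, plus strand) had 71.76 FPKM with DMSO, 64.43 with 100 nM and 63.45 with 200 nM at 24 h. The 48 h libraries had 62.43 with DMSO, 65.21 with 100 nM and 61.16 with 200 nM. The DMSO 24 h library stood highest and the other 5 lay close together, so the difference of BRD2 from DMSO at 24 h was no larger than the difference between the DMSO libraries. In bulk RNA a share of cells with a different level and a different level in every cell cannot be told apart. On the log2(FPKM + 1) scale the 24 h change was -0.15 (95% counting interval -0.21 to -0.09) with 100 nM and -0.17 (-0.24 to -0.11) with 200 nM, against -0.20 (-0.26 to -0.14) for DMSO 48 h over DMSO 24 h.

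BRD3 (NCBI Gene ID 8019, hg19 chr9:136895427-136933141, minus strand), a second widely expressed reader, had 12.73, 11.71 and 10.95 FPKM in DMSO, 100 nM and 200 nM at 24 h. At 48 h the values were 11.68, 13.46 and 10.71. BRD3 was lowest at 200 nM at both times and highest at 100 nM 48 h. Its log2 change was -0.20 (-0.31 to -0.09) in the 200 nM 24 h library and 0.19 (0.08 to 0.30) in the 100 nM 48 h library, opposite in sign. The BRD2 transcript was between 4.84 and 5.79 times as abundant as BRD3 per length.

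HEXIM1 (NCBI Gene ID 10614, hg19 chr17:43224684-43229468, plus strand), the inhibitor of P-TEFb in the 7SK particle, had 40.90 FPKM with DMSO, 36.30 with 100 nM and 39.96 with 200 nM at 24 h. The 48 h libraries had 37.87 with DMSO, 42.64 with 100 nM and 34.07 with 200 nM. Both extremes were treated 48 h libraries, and at 200 nM 24 h HEXIM1 was within counting error of its DMSO library. The 24 h log2 changes were -0.17 (-0.25 to -0.09) with 100 nM and -0.03 (-0.11 to 0.04) with 200 nM. At 48 h they were 0.17 (0.09 to 0.25) at 100 nM and -0.15 (-0.23 to -0.06) at 200 nM. HEXIM1 thus had no common direction over dose or time.

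LARP7 (NCBI Gene ID 51574, hg19 chr4:113558120-113578748, plus strand), which protects the 7SK RNA, had 18.50 FPKM with DMSO, 24.57 with 100 nM and 21.43 with 200 nM at 24 h. The 48 h values were 21.66 with DMSO, 19.24 with 100 nM and 21.54 with 200 nM. DMSO 24 h was the lowest library and 100 nM 24 h the highest. The log2 changes at 24 h were 0.39 (0.26 to 0.52) at 100 nM and 0.20 (0.07 to 0.34) at 200 nM, so the lower dose gave the larger difference. DMSO 48 h was itself 0.22 (0.08 to 0.35) above DMSO 24 h. At 48 h the changes were -0.16 (-0.30 to -0.03) at 100 nM and -0.01 (-0.14 to 0.13) at 200 nM.

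CDK9 (NCBI Gene ID 1025, hg19 chr9:130548305-130553052, plus strand), the kinase of P-TEFb, had the widest range of the 7, with the highest library 1.35 times the lowest. It had 24.70 FPKM with DMSO, 29.60 with 100 nM and 33.32 with 200 nM at 24 h. The 48 h libraries had 27.38 with DMSO, 27.62 with 100 nM and 29.40 with 200 nM. At each time the values were in order of dose, though at 48 h the differences were within counting error. The log2 changes at 24 h were 0.25 (0.14 to 0.37) at 100 nM and 0.42 (0.31 to 0.53) at 200 nM, and 19.2% of all genes tested were at least as far above DMSO in the latter comparison. At 48 h they were 0.01 (-0.10 to 0.12) and 0.10 (-0.02 to 0.21), and DMSO 48 h was 0.14 (0.03 to 0.26) above DMSO 24 h.

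CCNT1 (NCBI Gene ID 904, hg19 chr12:49082241-49110781, minus strand) encodes cyclin T1. It had 7.25, 6.62 and 6.06 FPKM in DMSO, 100 nM and 200 nM at 24 h, and 5.92, 6.25 and 6.31 at 48 h. The order over dose was descending at 24 h and ascending at 48 h, and the DMSO libraries were the extremes of the whole range. The log2 change at 200 nM 24 h was -0.22 (-0.35 to -0.10), while DMSO 48 h was -0.25 (-0.37 to -0.13) from DMSO 24 h. CCNT2 (NCBI Gene ID 905, hg19 chr2:135676392-135716915, plus strand) encodes cyclin T2. It had 5.28, 5.47 and 4.58 FPKM at 24 h and 5.27, 4.59 and 5.14 at 48 h. None of its 4 changes against DMSO had a counting interval clear of 0, and the DMSO libraries had nearly the same value. Neither cyclin followed CDK9 upward at 200 nM 24 h. Against the mean of both DMSO libraries, the change of CCNT1 at 100 nM 24 h turned from -0.11 to 0.01.

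A gene was called when its FPKM + 1 differed at least 1.5-fold and it reached an FPKM of 1 in either library. No member was called in any comparison. At 100 nM 24 h, 0 of the 7 were called, against 5.54% of 11475 genes called higher and 1.25% called lower. At 200 nM 24 h, again 0 were called, against 12.5% of 11660 genes higher and 7.58% lower. At 100 nM 48 h the count was 0, against 0.504% of 11514 genes higher and 1.75% lower. At 200 nM 48 h it was 0, against 1.53% of 11665 genes higher and 0.463% lower. Between the DMSO libraries it was also 0, against 8.49% of 11490 genes higher at 48 h and 1.94% lower. At a 2-fold threshold the count was 0 again in each comparison, in the same order against 1.35% of genes higher and 0.131% lower, 4.47% and 1.48%, 0.0608% and 0.408%, 0.206% and 0.06%, and 2.49% and 0.131%. With 7 genes and these shares, a count of 0 says little about the group, and the sizes are the description. Their median log2 change was -0.11 with 100 nM and -0.17 with 200 nM after 24 h, and 0.06 and -0.03 after 48 h, beside medians over all genes between -0.01 and 0.01. At 24 h, 3 of the 7 were above DMSO at 100 nM and 2 at 200 nM, beside 51.6% and 51.2% of all genes. CDK9 and LARP7 were above DMSO at both doses, while BRD2, BRD3, HEXIM1 and CCNT1 were below at both.

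**Figure D2:**
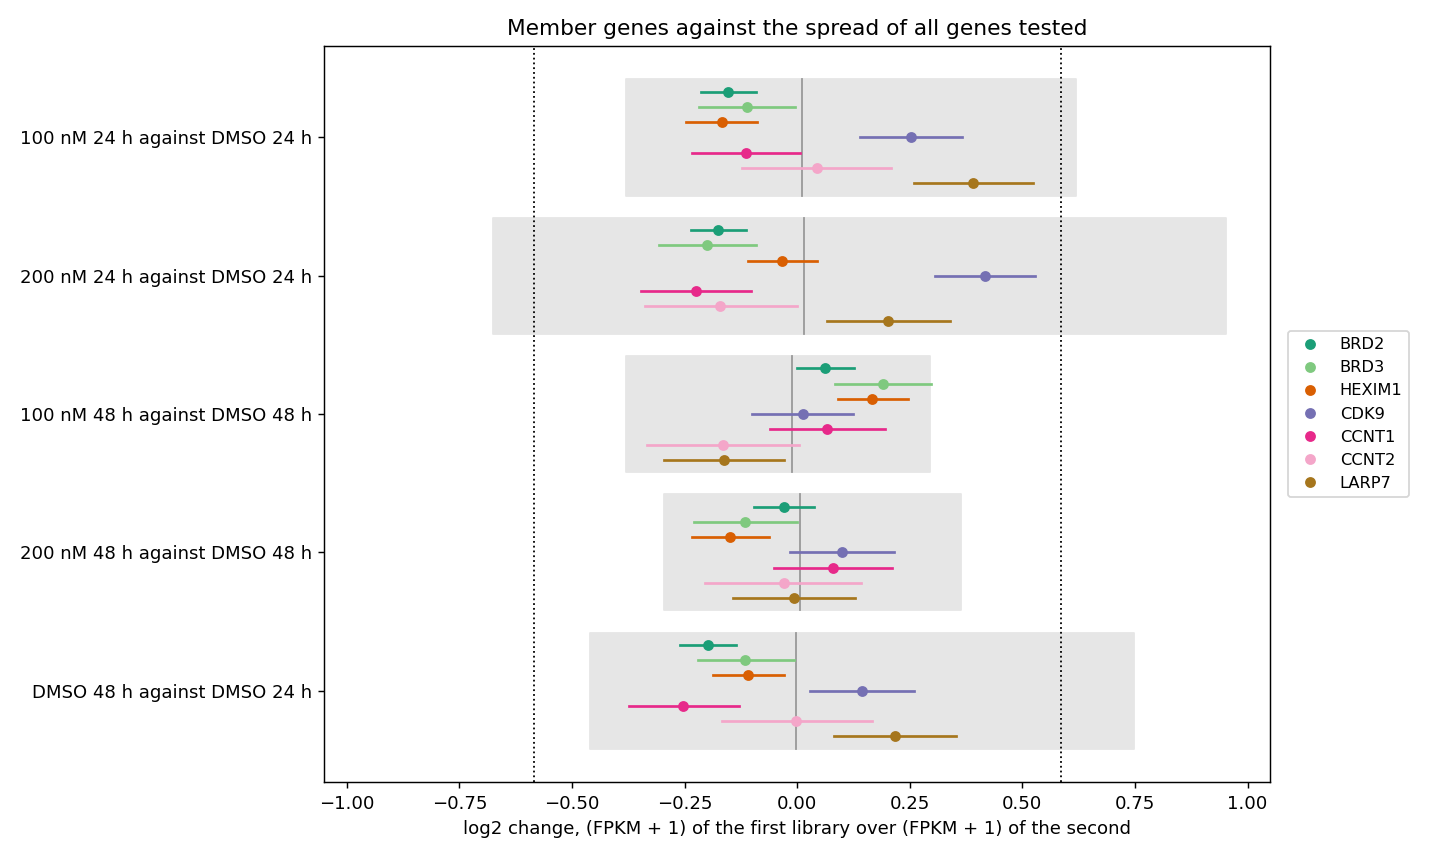
Log2 change of FPKM + 1 for the 7 genes in the 4 comparisons with DMSO of the same time and between the DMSO libraries. Points are values and coloured lines their 95% counting intervals. Grey boxes span the 5th to 95th percentile of all genes tested with their median as a grey line, and dotted lines mark 1.5-fold. Every point lies between the dotted lines and inside its grey box, and the farthest is at 0.42 for CDK9 at 200 nM 24 h.

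The difference between the DMSO libraries gives a second scale, chosen after the values were seen. At 100 nM 24 h, HEXIM1, CDK9, CCNT2 and LARP7 differed from DMSO by more than their own difference between DMSO 48 h and DMSO 24 h. In the 200 nM 24 h library BRD3, CDK9 and CCNT2 did so. CDK9 and CCNT2 did so at both doses, but the difference of CCNT2 between the DMSO libraries was only -0.0023, which nearly any value exceeds. These are 4 and 3 of the 7, while 41.2% and 62.6% of all genes exceeded theirs. At 48 h, BRD3, HEXIM1 and CCNT2 exceeded theirs at each dose, although for BRD3 at 200 nM both values round to -0.11, while 31.7% and 30.0% of all genes did. Time in culture cannot be told apart from a property of either DMSO library or from a swap of labels.

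The balance of inhibitor and kinase transcripts differed more than HEXIM1 alone at 24 h. No background of ratios of other gene pairs was calculated. At 24 h, 32.3% of all genes tested with 100 nM and 33.6% with 200 nM differed from DMSO at least as far as CDK9, in either direction. The ratio of HEXIM1 to CDK9 FPKM, also chosen after the values were seen, was 1.66 (counting interval 1.54 to 1.78) with DMSO, 1.23 (1.14 to 1.31) with 100 nM and 1.20 (1.12 to 1.28) with 200 nM in the 24 h libraries. In the 48 h libraries it was 1.38 (1.29 to 1.48) with DMSO, 1.54 (1.44 to 1.65) with 100 nM and 1.16 (1.08 to 1.25) with 200 nM. HEXIM1 exceeded CDK9 in 6 of 6 libraries, and the ratio was lower than in DMSO of the same time in 3 of the 4 treated libraries. The percent difference after 24 h was -25.9 with 100 nM and -27.6 with 200 nM, and after 48 h it was 11.6 and -16.2. Between the DMSO libraries it was -16.5, so at 200 nM 48 h the difference was no larger than that between the DMSO libraries. In the 200 nM 24 h library the lower ratio came with more CDK9 (33.32 against 24.70 FPKM) and nearly the same HEXIM1 (39.96 against 40.90). At 200 nM 48 h it came with less HEXIM1 (34.07 against 37.87) and more CDK9 (29.40 against 27.38, within counting error).

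**Figure D3:**
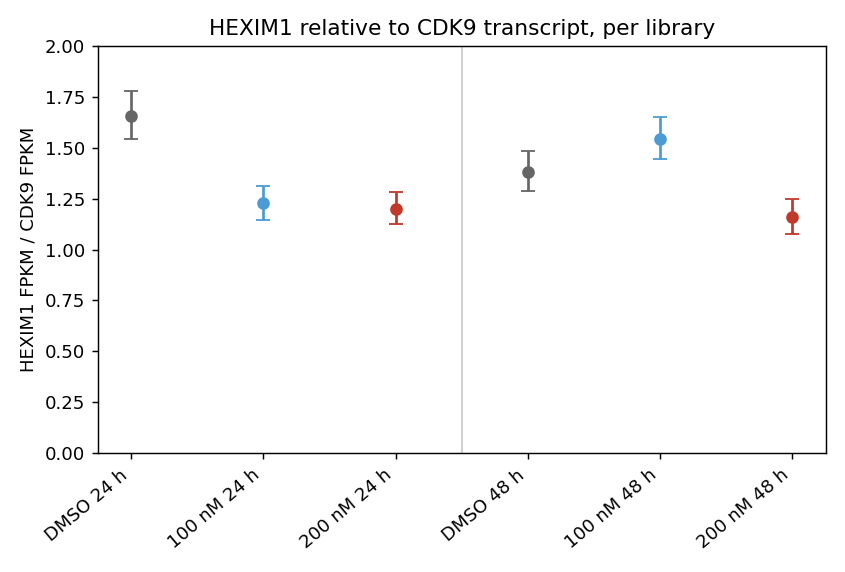
Ratio of HEXIM1 FPKM to CDK9 FPKM in each of the 6 libraries, with the vertical axis from 0 and bars for 95% counting intervals. The grey line separates 24 h from 48 h. The ratio is 1.66 in DMSO 24 h against 1.23 and 1.20 in the treated 24 h libraries, and at 48 h it is 1.54 at 100 nM and 1.16 at 200 nM on either side of the DMSO value of 1.38.

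The ratio of the kinase to its cyclins behaved differently. After 24 h CDK9 was 1.97 times the sum of CCNT1 and CCNT2 with DMSO, 2.45 times with 100 nM and 3.13 times with 200 nM. At 48 h it was 2.45, 2.55 and 2.57 times in DMSO, 100 nM and 200 nM. The values were in order of dose at both times, but the 48 h libraries lay close together. Between the DMSO libraries the ratio went from 1.97 at 24 h to 2.45 at 48 h, the rounded value of 100 nM 24 h. No counting interval or background was calculated for this ratio. CCNT1 was between 1.12 and 1.37 times CCNT2. HEXIM1 was between 4.03 and 5.19 times HEXIM2, its paralogue, which lay between 7.0 and 10.57 FPKM.

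The 7SK particle is the setting in which HEXIM1 and LARP7 meet MEPCE, and MEPCE had a much larger difference than the 7 genes. MEPCE had 30.25 FPKM with DMSO, 19.01 with 100 nM and 12.03 with 200 nM at 24 h. The 48 h values were 21.25 with DMSO, 25.07 with 100 nM and 16.54 with 200 nM. The 24 h log2 change was -0.64 with 100 nM and -1.26 with 200 nM, both past the 1.5-fold threshold. After 48 h it was 0.23 with 100 nM and -0.34 with 200 nM, and DMSO 48 h was at -0.49 from DMSO 24 h. Transcripts of the particle did not share a direction at 200 nM 24 h, with MEPCE lower, HEXIM1 within counting error and LARP7 higher by less than the threshold.

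Of 83 genes listed around P-TEFb and the readers, 82 were found and 79 or 80 were tested in each comparison. In the 200 nM 24 h comparison, 9 were called higher and 11 lower, which is 11.2% and 13.8% of those tested, against 12.5% and 7.58% of all genes. At 100 nM 24 h, 2 were higher (ELL2 and EGR1) and 2 lower (MEPCE and BRPF3). Each is 2.53% of those tested, against 5.54% of all genes higher and 1.25% lower. The 4 calls at 100 nM 24 h were lost against the mean of both DMSO libraries. EGR1, at 0.66 FPKM in DMSO 24 h, is left untested when FPKM 1 is required in both libraries. At 100 nM 48 h none was called at 1.5-fold, against 0.504% of all genes higher and 1.75% lower. There, 43 lay above and 36 below DMSO by any amount, while 47.2% of all genes lay above. At 200 nM 48 h, SP140 was higher and FOSL1 lower, each 1.25% of those tested, against 1.53% and 0.463% of all genes. SP140 was not tested with FPKM 1 required in both libraries, and FOSL1 was not called with TPM. Between the DMSO libraries, 3 were higher and 1 lower at 48 h. These are 3.80% and 1.27% of those tested, against 8.49% and 1.94% of all genes.

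The super elongation complex, which carries P-TEFb to polymerase, had 3 of 9 genes called higher and 0 lower at 200 nM 24 h, against 12.5% and 7.58% of all genes, with a median log2 change of 0.22. ELL2, an elongation factor of the complex, had 12.97, 20.54 and 24.07 FPKM in DMSO, 100 nM and 200 nM at 24 h and 22.59, 16.91 and 26.41 at 48 h. After 24 h ELL2 was 0.62 above DMSO with 100 nM and 0.84 with 200 nM on the log2 scale, but DMSO 48 h was itself 0.76 above DMSO 24 h. EAF2, a cofactor of the ELL proteins, was close to the filter at 0.71 FPKM in DMSO 24 h and 2.06 at 200 nM 24 h. It is left untested when FPKM 1 is required in both libraries. MLLT3, the third gene called, was 0.78 above DMSO at 200 nM 24 h. Between the DMSO libraries EAF2 was 0.38 and MLLT3 0.50 higher at 48 h.

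The pausing factors DSIF and NELF act opposite to P-TEFb until they are phosphorylated. At 200 nM 24 h, 0 of 6 were called higher and 1 lower, against 12.5% and 7.58% of all genes. NELFCD, a NELF subunit, had 54.92, 45.77 and 36.08 FPKM at 24 h and 50.66, 54.24 and 45.02 at 48 h, a log2 change of -0.59 at 200 nM 24 h. SUPT5H, the large DSIF subunit, had 47.23 FPKM in DMSO 24 h and 59.04 at 200 nM 24 h, which is 0.32 above and below the threshold. In the PAF1 complex, which travels with elongating polymerase, 0 of 6 were called in any comparison. At most 12.5% of all genes were called higher and 7.58% lower in a comparison, so 0 of 6 says little. The widest differences were 0.35 for CTR9 at 200 nM 24 h and -0.35 for WDR61 at 100 nM 48 h.

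None of the 9 other transcription CDKs and partners was called at 1.5-fold in any comparison. With at most 12.5% of all genes called higher and 7.58% lower in a comparison, 0 of 9 says little. CDK7, the kinase of TFIIH, had 33.80, 35.55 and 44.18 FPKM at 24 h, a change of 0.38 at 200 nM. CDK12, which acts during later elongation, had 18.45, 14.50 and 14.08 FPKM at 24 h, a change of -0.37 at 200 nM, beside -0.50 between the DMSO libraries. The change of CDK9 in the same comparison, 0.42, was next to that of CDK7.

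Among RNA polymerase II subunits, 1 of 12 was called higher (POLR2L, at 0.65) and 3 lower at 200 nM 24 h, against 12.5% and 7.58% of all genes. POLR2A, the largest subunit, had 32.52, 21.74 and 20.27 FPKM at 24 h and 23.63, 28.17 and 20.85 at 48 h. POLR2G, a subunit of the stalk, had a log2 change of -0.67 at 200 nM 24 h, and POLR2A had -0.66. For POLR2A the difference between the DMSO libraries was -0.44, and for POLR2G it was -0.41.

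Of the other bromodomain proteins, 2 of 30 were called higher and 5 lower at 200 nM 24 h, against 12.5% and 7.58% of all genes, with 8 above and 22 below DMSO by any amount and a median log2 change of -0.20. The changes of BRD2 and BRD3 in that comparison were -0.17 and -0.20. BRPF3, a scaffold of histone acetyltransferase complexes, had 18.39, 10.84 and 6.53 FPKM at 24 h and 11.47, 14.27 and 9.61 at 48 h, and its log2 change was -1.36 at 200 nM 24 h. ZMYND11, a reader of a methylated histone variant, had a change of -0.92 at 200 nM 24 h. Between the DMSO libraries BRPF3 differed by -0.64 and ZMYND11 by -0.57. SP140, a chromatin reader best known from immune cells, was low, with 0.67 FPKM in DMSO 48 h and 1.66 at 200 nM 48 h.

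Short-lived transcripts that depend on CDK9 did not share a direction. At 200 nM 24 h, 3 of 6 tested were called higher and 1 lower, against 12.5% and 7.58% of all genes. MYC had 48.70, 65.29 and 111.93 FPKM at 24 h and 73.36, 51.73 and 88.88 at 48 h, a log2 change of 1.18 at 200 nM 24 h. Between the DMSO libraries MYC differed by 0.58 and FOSL1 by -0.36. FOSL1, an AP-1 subunit, had 548.45, 439.64 and 318.45 FPKM at 24 h and 428.43, 527.54 and 281.31 at 48 h, a 200 nM change of -0.78 after 24 h and -0.61 after 48 h. EGR1 and JUNB, immediate early genes, were called higher at 200 nM 24 h, but for both the DMSO 48 h library also exceeded DMSO 24 h, by 1.62 and 1.33. EGR1 had 0.66 FPKM in DMSO 24 h and is left untested when FPKM 1 is required in both libraries.

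**Figure D4:**
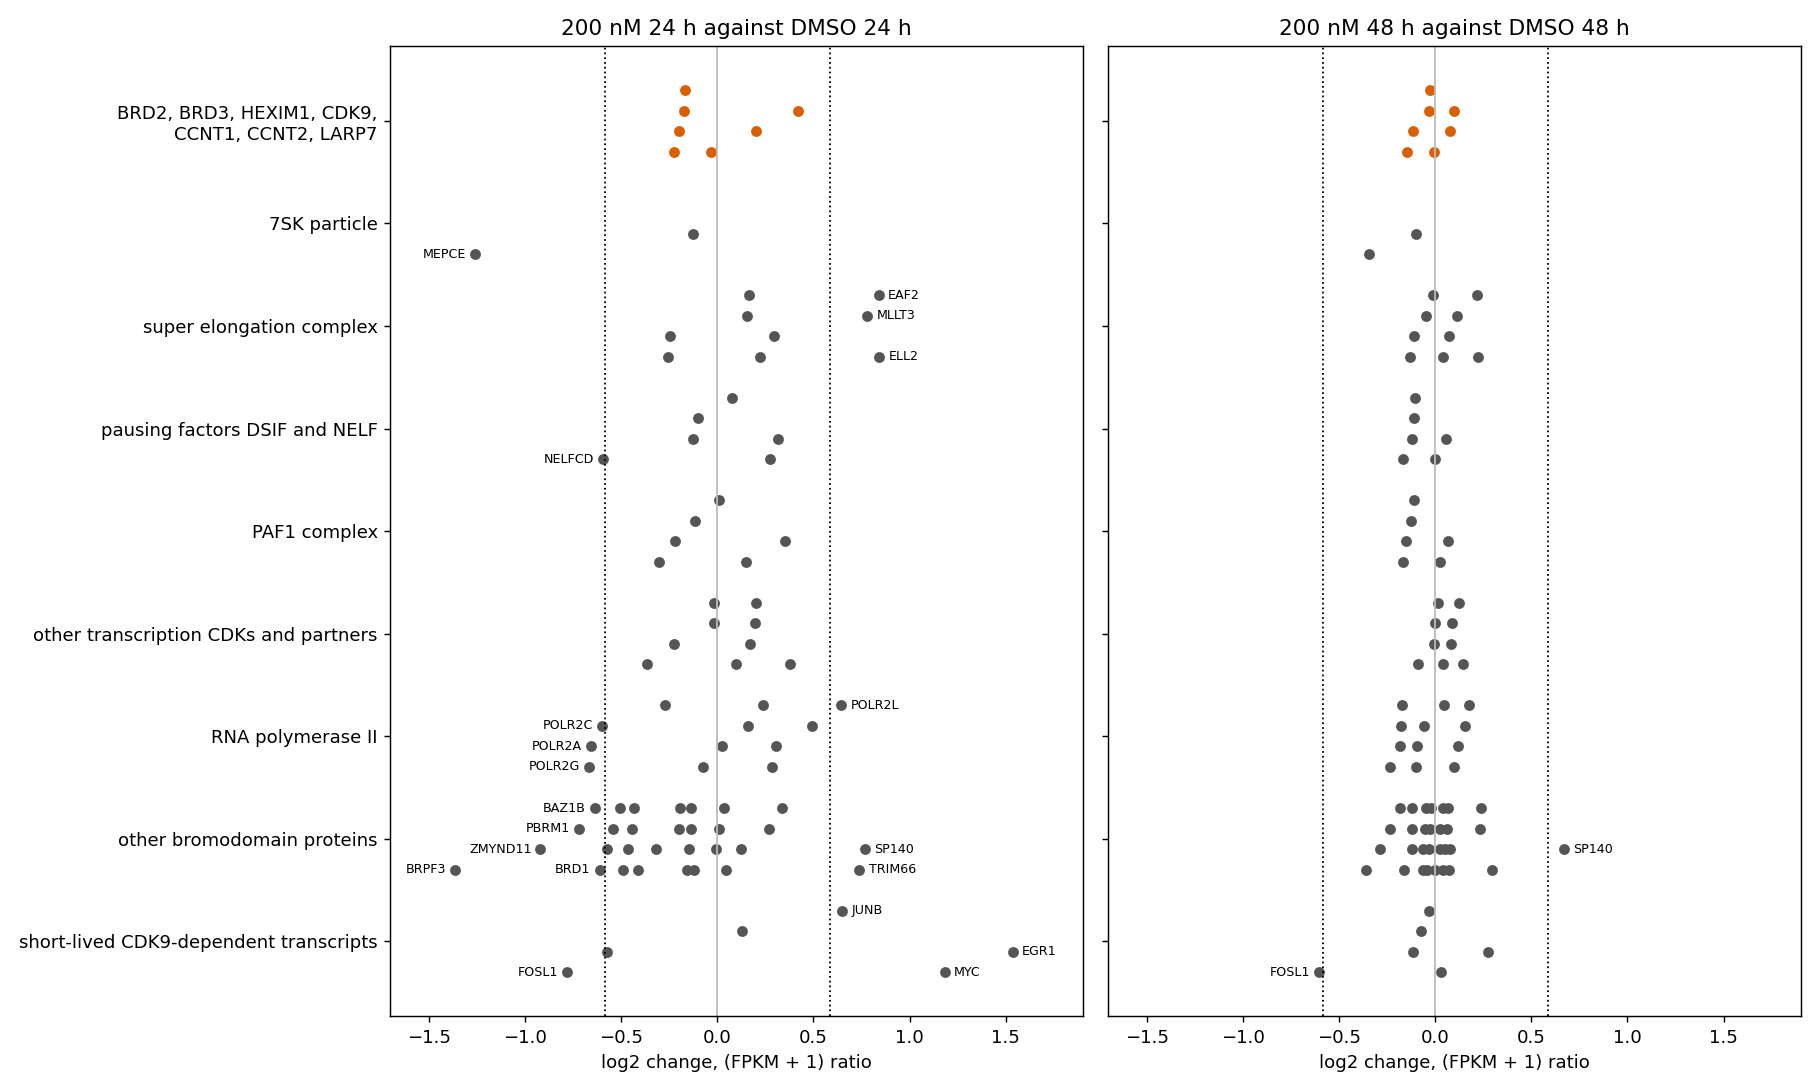
Log2 change of FPKM + 1 at 200 nM against DMSO of the same time, at 24 h on the left and 48 h on the right, for the 7 genes (orange) and the genes listed around them (grey). Each point is a gene that passed the filter, dotted lines mark 1.5-fold, and genes past it are named. At 24 h MEPCE lies at -1.26 and BRPF3 at -1.36, while at 48 h SP140 and FOSL1 are the genes past the lines.

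Profiles over the 6 libraries were compared as the root mean square difference of centred log2(FPKM + 1), among the 10810 genes that reached an FPKM of 1 in all 6. This is a description over 6 libraries, 1 for each condition. Nearest to HEXIM1 were PLCB3 at 0.010, HDAC4 and TMEM14C at 0.026, and CCZ1B and ERICH1 at 0.028, against a median of 0.189 over all genes. PLCB3, a phospholipase C, had 35.45, 30.91 and 34.45 FPKM at 24 h and 32.17, 36.71 and 29.03 at 48 h. Nearest to CDK9 were GALNT10 at 0.021, CEP70 and PPP1R12B at 0.023, PTPN13 at 0.029 and MFSD11 at 0.030, against a median of 0.200. Of the other 6 genes, BRD3 was nearest to HEXIM1, in place 199 of all genes, and LARP7 was nearest to CDK9, in place 1409. HEXIM1 and CDK9 stood 0.187 apart, close to the median of all genes.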

How the data were processed

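MDA-MB-231 RNA of 6 conditions was measured with 1 library each, and groups follow the sample titles. The authors deposited FPKM per gene, rounded to 2 decimals, for the same 16623 genes in each library. The submitters' processing notes name Bowtie2, RSEM and hg19. Their versions and the use of strand are not given in the sources used here, so overlapping antisense reads cannot be separated. Symbols came from the RefSeq table of GRCh38.p14 by NCBI Gene ID, and coordinates are those of the files.

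Log2((FPKM + 1) ratios) were taken against DMSO of the same time, with a filter of FPKM 1 in either library and a call at 1.5-fold. The pseudocount of 1 understates changes of low genes. The tables used here give FPKM and no counts, so count models were not used. Depth was inferred from 1-fragment steps among weakly expressed single-transcript genes (500 to 1500 bases), using lengths from GENCODE release 29, and is approximate. At these depths 3 fragments on a 2 kb transcript give an FPKM between 0.083 and 0.096. Intervals are 95% exact binomial or Poisson intervals on the inferred fragments and cover counting error only.

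The 7 genes and the lists around them were chosen with earlier results of these data known. Named genes are the 7, genes of each list past 2-fold against DMSO of the same time plus up to 2 more with the largest change, the 5 nearest in profile to HEXIM1 and to CDK9, and cell line markers. POLR2L and MLLT3 are named in addition, as genes past 1.5-fold at 200 nM 24 h. The further genes labelled in the plot of pathway changes are those past 1.5-fold there. Alternatives were pseudocounts of 0.1 and 0.01, no filter, FPKM 1 in both libraries, TPM, median-of-ratios factors, the mean of both DMSO libraries as reference, a 2-fold threshold and, chosen after seeing the data, DMSO 24 h as reference for 48 h. Python 3.11.15, numpy 2.4.6, pandas 2.3.3, scipy 1.17.1 and matplotlib 3.10.9 were used.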

Additional observations from a re-analysis of the deposited data

Results flagged for a closer look

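For CCNT1 and LARP7, both doses differed from DMSO in one direction at 24 h and in the other at 48 h. The log2 change of CCNT1 with 100 nM and 200 nM was -0.11 and -0.22 after 24 h but 0.067 and 0.079 after 48 h. That of LARP7 was 0.39 and 0.20 after 24 h but -0.16 and -0.0077 after 48 h. The difference was not tested, since each condition has 1 library, and the value of LARP7 at 200 nM 48 h is within counting error of 0. For both genes DMSO 48 h lay on the side of the treated 24 h libraries, at -0.25 for CCNT1 and 0.22 for LARP7 from DMSO 24 h. The direction at 48 h depended on the reference. Against DMSO 24 h, the 48 h changes with 100 nM and 200 nM were -0.19 and -0.17 for CCNT1 and 0.054 and 0.21 for LARP7, the same signs as at 24 h. DMSO 24 h was the highest library for CCNT1 and the lowest for LARP7, so no other sign was possible against it. Against the mean of both DMSO libraries the 48 h changes were -0.060 and -0.048 for CCNT1. For LARP7 they were -0.055 with 100 nM, which kept its sign, and 0.10 with 200 nM.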

How the results depend on the processing

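No paired analysis was possible because there is 1 library for each condition. No member was called at 1.5-fold or 2-fold under any setting run. Without the filter, no value moved. The reference mattered most. Against the mean of both DMSO libraries, which gives no value for the comparison between them, BRD2 was at -0.054 and -0.076 at 100 nM and 200 nM 24 h and at -0.037 and -0.13 at 48 h. CCNT1 was at 0.012 and -0.098 at 24 h, and the median of the 7 at 100 nM 24 h was 0.012. Signs also turned for CCNT1 at 48 h (-0.060 with 100 nM and -0.048 with 200 nM), LARP7 at 200 nM 48 h (0.10), HEXIM1 at 200 nM 24 h (0.021) and the median at 100 nM 48 h (-0.037). With DMSO 24 h as the reference for 48 h, chosen after seeing the data, the 100 nM 48 h changes were -0.14 for BRD2, 0.075 for BRD3, 0.059 for HEXIM1, 0.16 for CDK9, -0.19 for CCNT1 and 0.054 for LARP7. At 200 nM 48 h they were -0.23 for BRD2, -0.23 for BRD3, -0.26 for HEXIM1, 0.24 for CDK9, -0.17 for CCNT1 and 0.21 for LARP7, with a median of -0.17. Median-of-ratios factors put BRD2 at -0.24 at 200 nM 24 h and CCNT2 at -0.0049 at 100 nM 24 h, and TPM put LARP7 at 0.013 at 200 nM 48 h.

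The listed pathway genes called moved as follows. Between the DMSO libraries 6 were higher and 3 lower with a pseudocount of 0.1 or 0.01, 5 and 3 with TPM, 3 lower with median-of-ratios factors and 0 lower at 2-fold. At 100 nM 24 h, 1 was higher with FPKM 1 in both libraries or with median-of-ratios factors, and 0 were higher and 0 lower against the mean DMSO or at 2-fold. At 200 nM 24 h, 5 were higher and 4 lower against the mean DMSO, and 2 and 2 at 2-fold. At 200 nM 48 h, 0 were higher with FPKM 1 in both, 0 lower with TPM, 4 higher and 2 lower against the mean DMSO, 0 and 0 at 2-fold, and 5 and 8 against DMSO 24 h. At 100 nM 48 h, 2 were higher against DMSO 24 h. The cause was not tested beyond what each setting changes by construction. Depth limits CCNT2 most, which has the widest counting intervals of the 7.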
